A study of Mus musculus with 13 samples.

Results

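The 8 genes examined here encode proteins of the miRNA pathway itself, read as targets of the protein family that they belong to or work with: Tnrc6a, Tnrc6b, Tnrc6c, Ago1, Ago2, Ago3, Dicer1 and Xpo5. They were chosen by name, as the rows of a table of Argonaute (AGO) binding peaks whose gene column holds one of these symbols. Of the 8 genes, 6 were present, with 53 of 18284 peaks and 873 of 395152 tags, and 4652 gene names were present in all. No peak carried the name Ago3 or Xpo5. Of the members' peaks, 50 with 811 tags were labelled exonic, meaning that the label held 3'UTR, CDS, 5'UTR or an unclassified exon.

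The libraries came from cortex of wildtype C57BL6 mice aged 7 to 8 weeks, made by AGO CLIP, in which RNA is crosslinked to protein by ultraviolet light, AGO is immunoprecipitated and the RNA fragments it holds are sequenced as tags. There were 4 libraries from sham mice, which were anaesthetised and had their arteries exposed with no filament put in, 4 from the contralateral and 5 from the ipsilateral cortex of mice after middle cerebral artery occlusion (MCAO), a filament model of stroke. The artery was blocked for 35 min on the right side and the mice were killed after 3 h of recovery. Libraries with 1 replicate number were prepared together and came from 1 day of surgery, the numbers being 1, 2, 3 and 5 in sham, 1, 2, 4 and 5 in contralateral and 1 to 5 in ipsilateral libraries. The labels do not say how many mice went into a library, so p-values measure the spread between libraries. All mice were anaesthetised, and the contralateral cortex is from operated mice and is not an untreated control.

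Exportin-5, encoded by Xpo5, carries precursor miRNAs out of the nucleus, and the nuclease Dicer, encoded by Dicer1, cuts them to their mature length. A mature miRNA is loaded into 1 of the AGO proteins and guides it to RNAs with a match to its seed, the bases 2 to 8 from its 5' end. The TNRC6 proteins, also called GW182 proteins, bind AGO and recruit the deadenylases that shorten the poly(A) tail and silence the RNA. The transcripts of these genes can themselves be miRNA targets. Dicer1 as a target of let-7 is a textbook example of feedback in the pathway.

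The sequences below show a pattern found in all 3 Tnrc6 genes. In each gene a 3'UTR peak held a full 8-base match to miR-26 and, downstream, a full 8-base match to miR-23. Mature miRNAs are shown with the seed in capitals, from RefSeq, and are written 5' to 3'.
miR-26a-5p: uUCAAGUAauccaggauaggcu
miR-23a-3p: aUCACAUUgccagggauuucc
let-7a-5p: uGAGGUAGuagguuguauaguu
Target stretches of 22 bases are from GENCODE M21 transcripts (GRCm38, the same assembly as mm10), on the strand of the gene, with the match in capitals. The matches searched were the complement of seed bases 2 to 8, of bases 2 to 7 followed by A, or both together (an 8mer). For miR-26 these were TACTTGA and ACTTGAA, and for miR-23 AATGTGA and ATGTGAA. The match to miR-26 in Tnrc6a lay at chr7:123193101-123193108, in Tnrc6b at chr15:80929714-80929721 and in Tnrc6c at chr11:117761433-117761440.
Tnrc6a, miR-26: atatcagtttgaaTACTTGAAt
Tnrc6b, miR-26: atcactcttgaaaTACTTGAAt
Tnrc6c, miR-26: tcaaacatgcaaaTACTTGAAc
The match to miR-23 lay at chr7:123193128-123193135 in Tnrc6a, chr15:80929746-80929753 in Tnrc6b and chr11:117761460-117761467 in Tnrc6c.
Tnrc6a, miR-23: aggccaatattatAATGTGAAa
Tnrc6b, miR-23: aacctagaaagacAATGTGAAg
Tnrc6c, miR-23: aggccaataccgaAATGTGAAc

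The starts of the matches were 27 bases apart in Tnrc6a, 32 in Tnrc6b and 27 in Tnrc6c. The miR-26 match began 153, 241 and 585 bases after the last coding base, in the same order, so it lay in the proximal 3'UTR of each gene. Outside the matches the stretches were less alike. Between any 2 of the genes, 12 to 17 of the 22 bases shown were the same, the match itself included. The miR-23 stretches of Tnrc6a and Tnrc6c were the most alike, with 17 of 22. Of 6695 3'UTR peaks with at least 50 bases on a transcript, searched with 20 bases on each side, 80 (1.19%) held a miR-26 8mer and 76 (1.14%) a miR-23 8mer. Both occurred in 4 peaks (0.0597%), 1 in each Tnrc6 gene and 1 in Sema6d. The Tnrc6 genes belong to 1 family, so their peaks are not independent cases to set beside that share. The pairing of these matches was noticed in the data and has no test. A match describes the letters only and does not show that AGO was there with that miRNA.

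The peak with both matches held 21 tags in Tnrc6a, at chr7:123193088-123193167. They were spread over sham 1, 2, 3 and 5 as 2, 1, 0 and 3 tags, over contralateral 1, 2, 4 and 5 as 0, 2, 1 and 1, and over ipsilateral 1 to 5 as 2, 2, 6, 0 and 1. In Tnrc6b the peak lay at chr15:80929676-80929755 and held 40 tags, with 3, 4, 0 and 4 in sham, 4, 2, 4 and 2 in contralateral and 4, 5, 5, 0 and 3 in ipsilateral libraries. The Tnrc6c peak, at chr11:117761394-117761473, had 31 tags, with 2, 3, 1 and 4 in sham, 4, 4, 0 and 1 in contralateral and 2, 4, 4, 2 and 0 in ipsilateral libraries. Each of the 3 peaks therefore had tags in libraries of all groups, in 10, 11 and 11 of 13 libraries. At a median of 11 tags per peak over all libraries, single peaks were too thin to compare between groups, and no member peak passed the filter on low counts that 238 peaks passed.

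**Figure D1:**
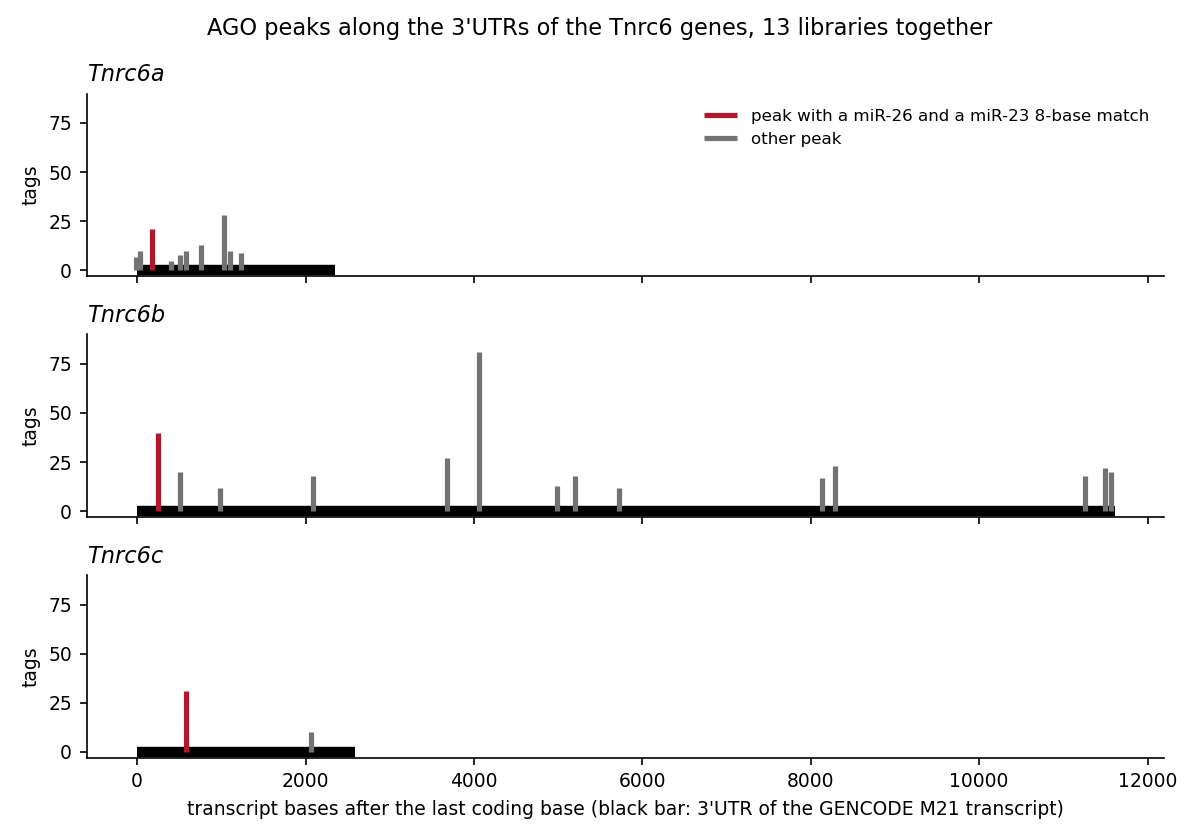
Peaks along the 3'UTRs of Tnrc6a, Tnrc6b and Tnrc6c, with transcript bases after the last coding base on the x axis and tags over 13 libraries on the y axis. Each line is 1 peak, red lines mark the peak with both 8mers, and the black bar is the 3'UTR. The red peaks hold 21, 40 and 31 tags, and the Tnrc6b peak of 81 tags is the tallest.

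Tnrc6b, the family member with the longest 3'UTR of the 3, at 11612 bases in transcript Tnrc6b-201, carried 396 tags in 18 peaks. Of its 379 exonic tags, 341 lay in 14 peaks labelled 3'UTR and 38 in 3 CDS peaks, and a further peak of 17 tags was intronic. Its peaks spanned the 3'UTR from end to end, with centres from 243 to 11565 bases after the stop. The most tagged member peak, chr15:80933490-80933569 in exon 25 of 25, held 81 tags. By library these were 7, 11, 2 and 9 in sham, 14, 7, 4 and 3 in contralateral and 5, 6, 12, 1 and 0 in ipsilateral libraries, so 12 of 13 libraries had at least 1 tag there. No match to any of the 34 seeds searched lay in it, which says only that these letters are not in this window. The seed of miR-124-3p was not among those searched. Other Tnrc6b 3'UTR peaks held 8mers to miR-34a (a peak of 12 tags), to miR-101a and miR-338 together (18 tags) and a further miR-23 8mer in the bases beside a peak of 17 tags.

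Tnrc6a showed another layout. It had 248 tags in 24 peaks, of which 104 tags lay in 8 peaks labelled 3'UTR, 118 in 12 CDS peaks, 22 in 3 peaks with more than 1 label and 4 in an intron. Of its CDS peaks, 7 were in exon 6 of 24, with 4 to 12 tags each. Its most tagged peak was in the 3'UTR, chr7:123193939-123194018, with 28 tags, 10 in sham, 8 in contralateral and 10 in ipsilateral libraries. The peaks of its 3'UTR reached as far as 1230 bases after the stop, in a 3'UTR of 2348 bases. A peak of 13 tags there held 2 matches to miR-30, 1 of them an 8mer. Another 3'UTR peak, of 5 tags, held matches to miR-19, miR-22, miR-30, miR-130 and miR-148. In the coding region matches to miR-27 recurred in 2 peaks, of 5 and 22 tags, and matches to miR-138 in 4 peaks of 4 to 11 tags, a pair of which overlapped and share 1 match, with an 8mer in exon 6.

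Tnrc6c had 59 tags in 3 peaks, of which 41 tags were in 2 3'UTR peaks and 18 in a CDS peak at chr11:117747225-117747304. Over all exonic tags and per 1000 bases of transcript, Tnrc6a had the most, with 29.8 tags, followed by Tnrc6b with 21.9, Dicer1 with 11.1, Tnrc6c with 6.67 and Ago1 with 2.77. With only peaks at least 12 high the order changed, to 20.7 for Tnrc6b, 8.68 for Tnrc6a, 7.92 for Dicer1, 5.54 for Tnrc6c and 1.80 for Ago1. Both orders count tags of overlapping peaks more than once. With overlapping peaks counted once, Dicer1 was left with 63 of its 109 exonic tags, while Tnrc6c kept all 59. The place of Dicer1 above Tnrc6c therefore rests on tags counted more than once. These tag densities are sums over 13 libraries and carry no error. They reflect both how much of an RNA is present and how often AGO holds it, which cannot be told apart in AGO tags, and in cortex pieces fewer cells of a type and less RNA per cell cannot be told apart either.

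**Figure D2:**
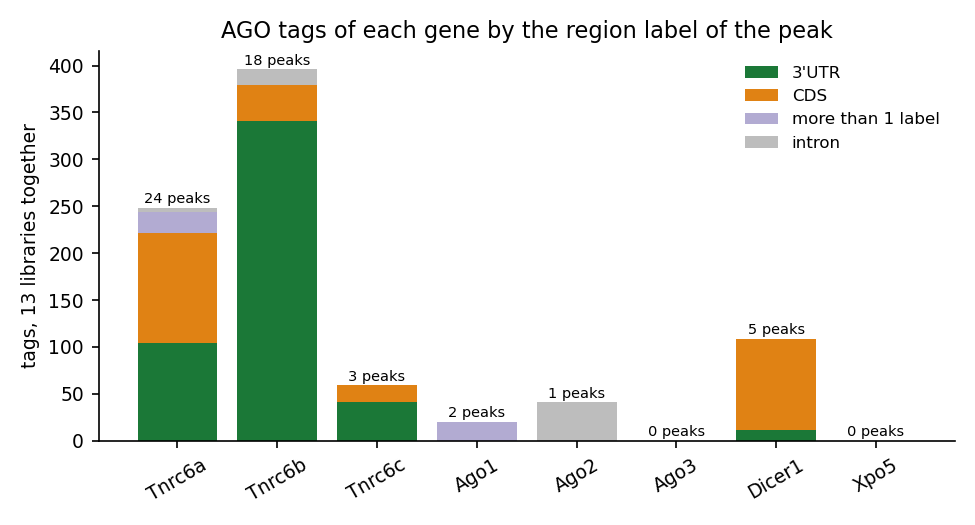
Tags of each of the 8 genes over 13 libraries (y axis), stacked by the region label that the authors gave the peak, with the number of peaks above each bar. Tnrc6b is mostly 3'UTR with 341 tags, Tnrc6a is split between 104 3'UTR and 118 CDS tags, Dicer1 has 98 of 109 tags in CDS, and Ago3 and Xpo5 have none.

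The share of a gene's exonic tags that fell in peaks labelled 3'UTR separated Tnrc6b from Tnrc6a in every library. It was 90.2% ± 9.13 (SD, n = 13 libraries) for Tnrc6b and 40.1% ± 13.3 for Tnrc6a, against 63.1% ± 4.11 for all genes other than the 8. Only peaks with 3'UTR as their single label were counted as 3'UTR, in all genes. Tnrc6a peaks of 7 and 10 tags labelled CDS and 3'UTR together were thus left out of its 3'UTR tags. Tnrc6b had no peak with more than 1 label, so the gap between these genes depends in part on this choice. Tnrc6b was higher than Tnrc6a in 13 of 13 libraries, by 50.1 percentage points ± 14.3 (exact two-sided sign-flip permutation test over libraries, p = 0.000244, the smallest these 13 libraries allow, and 0.000366 after Benjamini-Hochberg adjustment over 3 such tests). Tnrc6b was also above the other genes in 13 of 13 libraries, by 27.1 points (exact permutation p = 0.000244, adjusted 0.000366). Tnrc6a was above them in 1 of 13, sham 5, and the mean difference was -22.9 points ( exact permutation p = 0.000488, adjusted 0.000488). These shares rest on few tags in some libraries, as few as 2 Tnrc6b tags in ipsilateral 4 and 3 Tnrc6a tags in ipsilateral 5. All 13 libraries were counted over 1 set of peaks on the same transcripts. Their agreement is therefore not independent support for a difference in binding between the genes, and the p-values measure only the spread between libraries. The tests of 3'UTR share were not in the list of planned tests.

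A pair of measured properties of the genes moved with this difference, and their part in it was not tested. The 3'UTR makes up 68.1% of the coding bases plus 3'UTR in Tnrc6b-201 and 29.2% in Tnrc6a-201. In the authors' table a value read here, from its size and name alone, as the expected peak height was 0.03 for all Tnrc6a peaks, whose heights went down to 3, and 1.99 for most Tnrc6b peaks, whose heights went down to 12. The median over all peaks was 0.25, so peak numbers and tag sums may not be comparable between the genes. With only peaks at least 12 tags high, Tnrc6a was left with 3 exonic peaks and the difference fell to 27.9 points, with Tnrc6b higher in 10 of 13 libraries (exact permutation p = 0.00195). Per 1000 bases, Tnrc6a had 44.3 tags in the 3'UTR and 20.7 in the coding region, and Tnrc6b 29.4 and 7.00. With only peaks at least 12 high the 3'UTR values were 20.9 for Tnrc6a and 29.4 for Tnrc6b and the coding values 3.87 and 3.31, so the order of the genes in the 3'UTR depended on the height required. Both genes were denser in the 3'UTR than in the coding region either way.

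**Figure D3:**
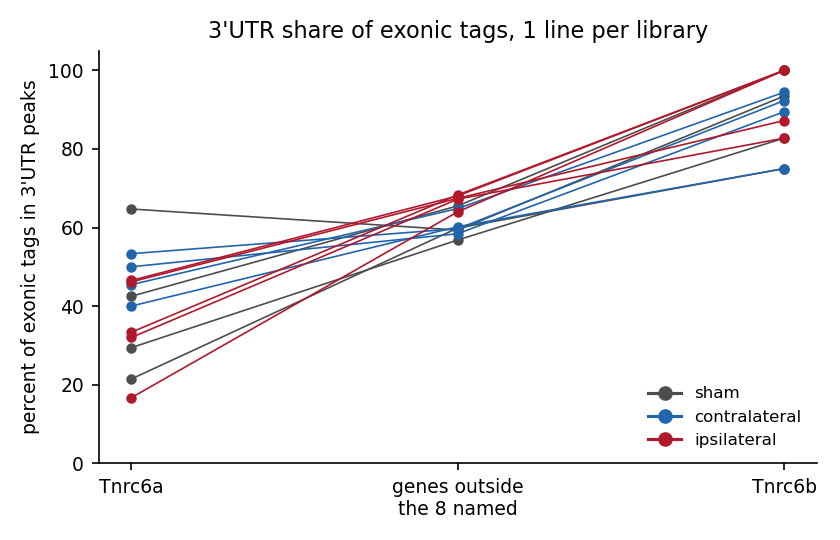
Percent of exonic tags in peaks labelled 3'UTR (y axis) for Tnrc6a, for all genes outside the 8 and for Tnrc6b, with 1 line per library coloured by group. All 13 lines are higher at Tnrc6b than at Tnrc6a, the means being 90.2% and 40.1%.

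Dicer1 was tagged mostly in its coding sequence: 98 of its 109 tags lay in 4 CDS peaks, all in exon 21 of 27 of Dicer1-201, and 11 in 1 3'UTR peak. Within that exon 2 let-7 8mers were found, at chr12:104702696-104702703 and chr12:104702804-104702811. They are shown because they are matches of the miRNA named above as a regulator of Dicer, here in coding sequence.
Dicer1, let-7 (a): aacgctaacacatCTACCTCAg
Dicer1, let-7 (b): cctgtacaaccaaCTACCTCAt
The first match lay in a peak of 26 tags and the second in 2 peaks of 30 and 20 tags that overlap each other, the first of which also overlaps the peak of 26, so tags are shared between them. A let-7 8mer (CTACCTC followed by A) was present in 66 of 3231 CDS peaks (2.04%) and in 31 of 6695 3'UTR peaks (0.463%). The remaining peak of the exon, of 22 tags, held no let-7 match but a match to miR-27. A match to miR-29 crossed its edge, and an 8mer to miR-103 lay beside it. By library the peak of 30 tags had 2, 2, 2 and 7 in sham, 1, 3, 2 and 0 in contralateral and 2, 3, 4, 0 and 2 in ipsilateral libraries, hence tags in 11 of 13 libraries. Counting overlapping peaks once left 63 exonic Dicer1 tags.

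The AGO genes had few exonic tags under their own names. Ago1 had 20 tags in 2 peaks that carried the labels 3'UTR and intron together, both in the last exon of Ago1-201 in GENCODE. The first, chr4:126435185-126435264, had 7 tags and lay beside a miR-17 match, and the second, chr4:126437241-126437320, had 13 tags and lay beside a miR-22 match. Ago2, the AGO protein able to cut its target, had a single peak of 41 tags at chr15:73178792-73178871, in an intron. Its tags were 11, 2, 2 and 2 in sham, 13, 0, 0 and 0 in contralateral and 9, 0, 0, 2 and 0 in ipsilateral libraries. The 3 libraries of replicate 1 therefore gave 33 of the 41 tags (80.5%), while they held 50.9% of all peak tags and 66.2% of intron tags. In shares of all peak tags the replicate 1 libraries had 1.40 to 1.98 per 10000, above 9 of the 10 others, and the exception, ipsilateral 4 at 2.81, rested on 2 tags. Many of the lower libraries had 0 tags. By the limit of 3 counts, 0 tags allow up to 1.19, 3.77 and 2.54 per 10000 in contralateral 2, 4 and 5. In ipsilateral 2, 3 and 5 they allow up to 0.862, 0.831 and 7.94. Some of these limits lie above the replicate 1 values. Pooled, the shares were 1.64 per 10000 in replicate 1 and 0.412 in the others.

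Ago2 had no exonic tag under its own name. A further 2 peaks without a gene name, labelled as downstream of a gene by the authors, lay in the 3'UTR of Ago2-201 in GENCODE M21, at chr15:73095945-73096024 with 8 tags and chr15:73097915-73097994 with 29 tags. The second held matches to let-7 and to miR-29. Its tags were 3, 1, 0 and 4 in sham, 9, 4, 1 and 1 in contralateral and 0, 3, 2, 0 and 1 in ipsilateral libraries. These peaks lie outside the rule and enter no member total. For Ago3 and Xpo5, 0 tags in a group allow at most 0.386 to 0.505 tags per 10000 exonic tags by the limit of 3 counts, which covers counting error only, and peaks under the caller's threshold are not in the table.

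Over the members, 17 of 25 3'UTR peaks (68.0%) and 14 of 20 CDS peaks (70.0%) held a match to at least 1 of the 34 miRNA families searched. Over all genes the shares were 52.7% of 6695 3'UTR peaks and 55.8% of 3231 CDS peaks. Without the 20 bases on each side, 13 of the 25 3'UTR peaks and 13 of the 20 CDS peaks of the members held a match. The share over all genes was not computed for that setting, so these counts have no background beside them. Matches were searched on the strand of the gene. Among the miRNAs of the matched families, miR-26a had 5118 tags in the 13 libraries, 29.4 times the median miRNA in the median library, with 123 ± 37.7 per 10000 miRNA tags in sham (n = 4), 103 ± 59.2 in contralateral (n = 4) and 160 ± 68.5 in ipsilateral libraries (n = 5). The tags for miR-23a and let-7a were 1.48 and 0.767 times the median miRNA. Most miRNAs of the table lay near that median, so low values do not show presence. Levels were read for 1 named miRNA per family, so other miRNAs with the same seed are not counted in them. Of the 34 named miRNAs, 30 had a value. The miRNAs miR-27a-3p and miR-129-5p, whose matches lay in member peaks, had none.

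Between the groups no member was called by edgeR's test, which does not show that none changed. Of the 3 members that passed the filter, 0 were called. Over 444 genes, 0.225% were called in ipsilateral against sham and 0.0% in the other comparisons. Levels are given per 10000 exonic tags of the library, with Tnrc6b first because it had the most tags. Sham 1, 2, 3 and 5 had 19.2, 19.4, 22.8 and 24.4, contralateral 1, 2, 4 and 5 had 19.8, 16.5, 34.1 and 20.1, and ipsilateral 1 to 5 had 13.9, 11.7, 19.4, 4.07 and 21.1. The lowest values were ipsilateral, but ipsilateral 3 and 5 fell within the range of sham, so the groups overlapped. Within the 4 pairs of the same surgery day, Tnrc6b was lower in ipsilateral than in sham in 4 of 4, as were 12.6% of the 444 genes, and 4 pairs cannot give an exact two-sided p under 0.125. It was lower than in contralateral in 3 of 4 pairs. With the replicate number as a block the edgeR adjusted p of Tnrc6b was 0.413 against sham and 0.337 against contralateral. The means were 21.5 ± 2.58 (SD, n = 4) in sham, 22.6 ± 7.83 (n = 4) in contralateral and 14.0 ± 6.78 (n = 5) in ipsilateral libraries. By edgeR's quasi-likelihood test, with Benjamini-Hochberg adjustment over 444 genes, the log2 fold change of Tnrc6b was -0.62 (SE 0.30, adjusted p = 0.482) in ipsilateral against sham, -0.61 (SE 0.31, adjusted p = 0.391) against contralateral cortex and -0.01 (SE 0.31, adjusted p = 0.993) for contralateral against sham. Ipsilateral 4, which had the lowest value, held 2 Tnrc6b tags.

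Tnrc6a did not share that order. Its values were 15.4, 11.4, 16.0 and 9.03 in sham, 7.65, 9.51, 8.52 and 12.3 in contralateral and 20.6, 10.1, 10.7, 12.2 and 10.6 in ipsilateral libraries. The contralateral libraries were the lowest group, and ipsilateral 1 was the highest library. The means were 12.9 ± 3.31, 9.49 ± 2.00 and 12.8 ± 4.41, with overlap between all the groups. The log2 fold change of Tnrc6a by edgeR was 0.04 (SE 0.33, adjusted p = 0.981) in ipsilateral against sham, 0.55 (SE 0.35, adjusted p = 0.463) against contralateral and -0.51 (SE 0.36, adjusted p = 0.993) in contralateral against sham. The first of these had no stable sign: it was -0.36 (adjusted p = 0.529) without ipsilateral 1, -0.11 without sham 5 and -0.029 without sham 2. The second kept its sign but was 0.15 (adjusted p = 0.809) without ipsilateral 1 and 0.055 without the 3 libraries of replicate 1. The number of Tnrc6b tags per Tnrc6a tag within a library ranged from 1.25 to 2.71 in sham, from 1.64 to 4.00 in contralateral and from 0.333 to 2.00 in ipsilateral libraries, and the ranges overlapped.

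**Figure D4:**
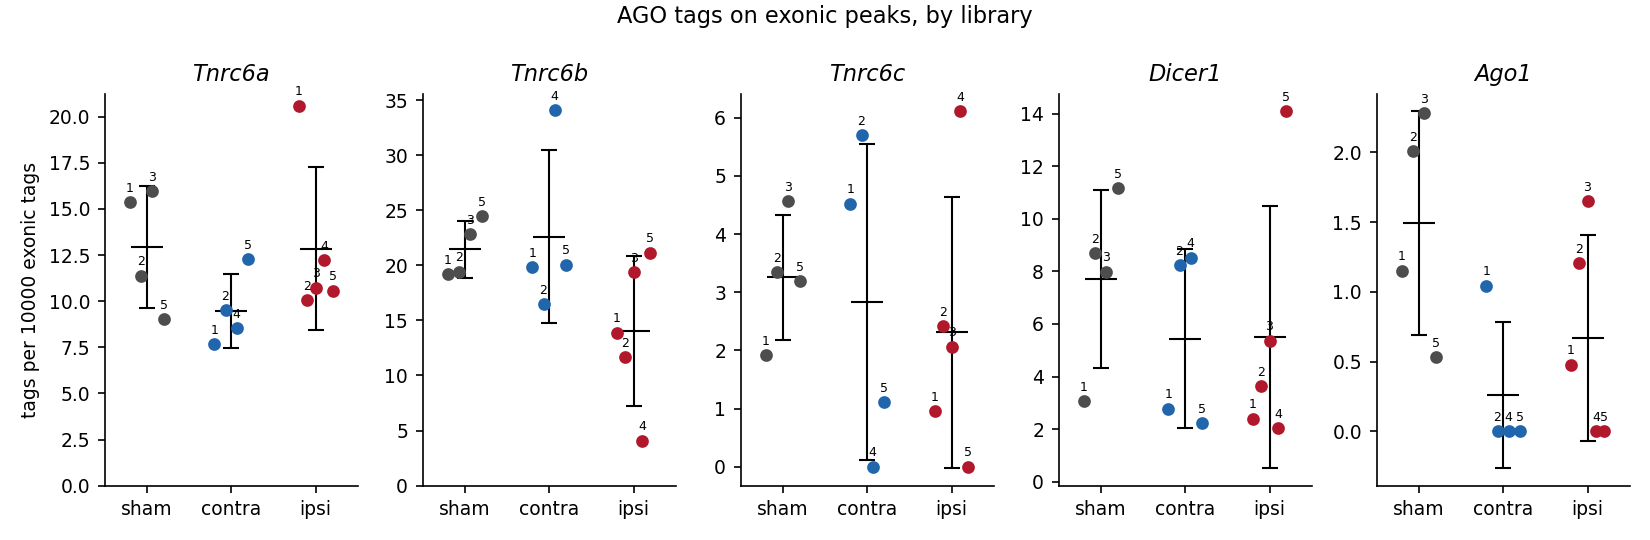
Tags per 10000 exonic tags (y axis) of 5 genes in sham, contralateral and ipsilateral libraries, with 1 numbered point per library, and the mean ± SD in black. The y axes differ between genes. For Tnrc6b the ipsilateral libraries run from 4.07 to 21.1 and the sham libraries from 19.2 to 24.4, and in every gene the ipsilateral range overlaps both others.

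Dicer1 had 3.07, 8.70, 7.99 and 11.2 in sham, 2.78, 8.24, 8.52 and 2.23 in contralateral and 2.40, 3.62, 5.36, 2.04 and 14.1 in ipsilateral libraries. The highest of these, ipsilateral 5, came from 4 tags. The means were 7.73 ± 3.39, 5.44 ± 3.40 and 5.50 ± 4.97, and the edgeR log2 fold change of Dicer1 was -0.80 (SE 0.51, adjusted p = 0.589) in ipsilateral against sham, -0.23 (SE 0.54, adjusted p = 0.876) against contralateral and -0.57 (SE 0.52, adjusted p = 0.993) in contralateral against sham. Libraries within each group differed by more than the group means did.

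Tnrc6c and Ago1 did not pass the filter on low counts, which 444 genes passed. Tnrc6c had 1.92 to 4.56 per 10000 in sham, 0 to 5.70 in contralateral and 0 to 6.11 in ipsilateral libraries, from 20, 23 and 16 tags. Ago1 was seen in 4 of 4 sham, 1 of 4 contralateral and 3 of 5 ipsilateral libraries, with 9, 3 and 8 tags. The contralateral tags of Ago1 all came from contralateral 1, and 0 tags in contralateral 4, for example, allow up to 5.11 per 10000, which is above every sham value. In a fit of all 3417 genes without the filter, neither gene was called. The log2 fold change of Tnrc6c was -0.54 (SE 0.65, edgeR adjusted p = 0.811) in ipsilateral against sham and that of Ago1 was -0.44 (SE 0.86, adjusted p = 0.897).

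Of the 3 members that passed the filter, 0 were called at an adjusted p under 0.05 in any comparison, and 0 had an unadjusted p under 0.05. The background was low as well: 0.225% of the 444 genes (1, the heat shock gene Hspa1b) were called in ipsilateral against sham cortex by edgeR, where 43 had an unadjusted p under 0.05 and DESeq2 called 2, 0.0% against contralateral cortex, where 54 genes had an unadjusted p under 0.05 and DESeq2 called 4, and 0.0% in contralateral against sham, where 8 had an unadjusted p under 0.05 and DESeq2 called 0. Without the filter the share of 3417 genes called was 0.0585% in each ipsilateral comparison and 0.0% in contralateral against sham. The members' count of 0 is near all these backgrounds. Likewise 0 of the 3 members had groups that did not overlap. Over the 444 genes, the groups did not overlap in 0.901% (higher) and 2.25% (lower) in ipsilateral against sham, in 0.676% and 2.48% against contralateral cortex, and in 1.8% and 0.676% in contralateral against sham. In ipsilateral against sham cortex 2 of the 3 tested members had a negative fold change, with a median of -0.62, while 50.9% of all 444 genes were negative, with a median of -0.02. In contralateral against sham 3 of 3 were negative, with a median of -0.51, beside 50.0% of all genes. Against contralateral cortex 2 of 3 ipsilateral values were negative, with a median of -0.23, beside 49.1%. Without the filter 5 of 5 members with exonic tags were negative in ipsilateral against sham (median -0.54, all genes 53.4% with a median of -0.099). In contralateral against sham 4 of 5 were negative (median -0.57, all genes 54.8% with a median of -0.12). In ipsilateral against contralateral 3 of 5 were negative (median -0.19, all genes 47.5% with a median of 0.045). Of the 5 in ipsilateral against sham, Tnrc6a was at -0.048 (SE 0.43) and had no stable sign, so the count does not show a shared direction. Library sums of the 3 Tnrc6 genes together were 37.7 ± 3.97 in sham, 34.9 ± 5.18 in contralateral and 29.2 ± 5.61 in ipsilateral libraries, and the ipsilateral range of 22.4 to 35.5 overlapped the sham range of 34.1 to 43.4.

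**Figure D5:**
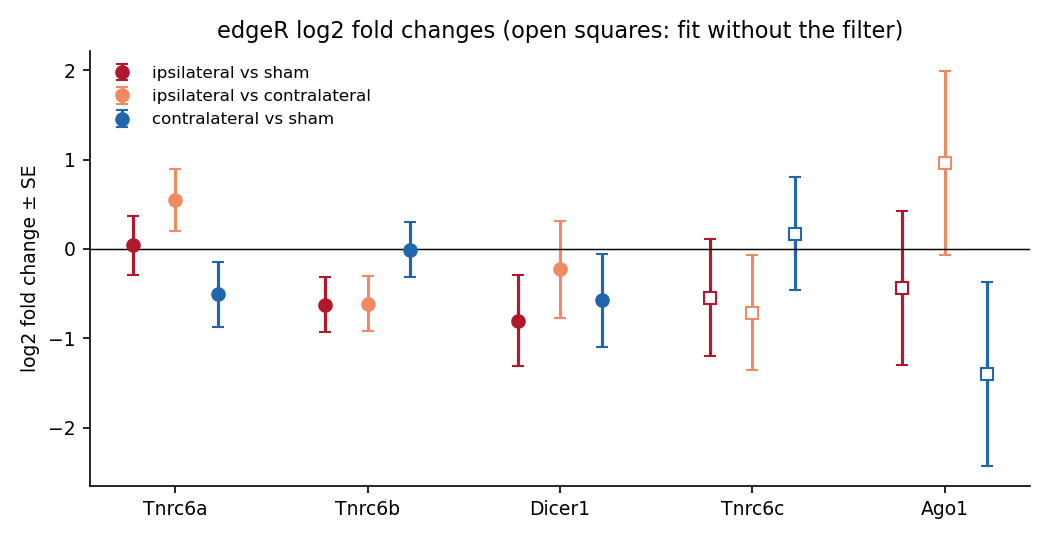
Log2 fold changes with their SE by edgeR (y axis) for 5 genes in the 3 comparisons, which share libraries. Filled circles are from the fit with the filter and open squares from the fit without it. Tnrc6b is at -0.62 and -0.61 in the ipsilateral comparisons and near 0 in contralateral against sham.

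The same pattern of no calls held for the wider pathway, listed by role. Of 57 further genes of biogenesis, AGO partners and repression machinery, 29 had a peak, 22 had exonic tags and 4 were tested, of which 0 were called. Pum2, an RNA-binding repressor, had 428 exonic tags and a log2 fold change of -0.67 in ipsilateral against contralateral cortex (SE 0.28, edgeR adjusted p = 0.329). Ddx5, a helicase of primary miRNA processing, had 417 tags and Ddx6, a helicase of the repression machinery, 268, and their edgeR adjusted p ranged from 0.864 to 0.999 over the comparisons. The genes whose exonic shares followed that of Tnrc6b most closely over 13 libraries were Sowaha, Sorl1 and Gria3, with Spearman's rho of 0.868, 0.802 and 0.780, where the median of 441 genes was 0.0549. These correlations describe libraries that share depth and surgery days and have no test.

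The libraries differed in ways that reach these values. Peak tags per library ran from 3780 to 71027 and exonic tags from 2839 to 28742, and in replicate 1 libraries 50.4% to 60.4% of peak tags were intronic or intergenic, against 17.5% to 44.2% in the others. Markers of neurons had exonic tags for 6 of 7 genes, with 112 to 253 per 10000, and of astrocytes for 5 of 6. Microglia and myeloid markers had 1 of 5, with at most 4.79 per 10000, and vascular markers 2 of 4, with at most 6.11. Blood markers had 1 of 6, the globin gene Hbb-bs, with at most 3.13 per 10000. Its tags were 9 in sham, 10 in contralateral and 4 in ipsilateral libraries, while Hbb-bt, Hbb-b1, Hba-a1, Hba-a2 and Alas2 were at 0. The oligodendrocyte list, with 4 of 6 genes tagged and Mog and Mag at 0, had 37.3 to 50.9 in sham, 36.8 to 58.0 in contralateral and 10.6 to 44.8 in ipsilateral libraries, and its part in the members' values was not tested.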

How the data were processed

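AGO CLIP tags were analysed in 13 libraries. Both tables deposited by the authors hold counts, whole numbers of tags per AGO peak and per mature miRNA, not normalized. The submitters' processing notes name Novoalign and mm10, and the peak caller is not given in the sources used here. The authors' peak table also gives a p-value per peak, at most 0.01, and 2 further values, read from their names and sizes as peak height and expected height and used only to describe or filter peaks. Of 18285 peaks, 1 without a position was left out. Starts were taken as counted from 0 and are printed 1 higher, an assumption. The f and r in peak names did not follow the strand of the gene, so peak strand is not known.

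Exonic tags were summed per gene and tested with edgeR 4.0.16 (TMM, filterByExpr, all 13 libraries in 1 quasi-likelihood fit, two-sided, Benjamini-Hochberg over 444 genes). The biological coefficient of variation was 0.365. The fit code was tested on simulated data. With many genes changed in 1 direction only the share of false calls was above the nominal 0.05, and the test was repeated with equal numbers of rises and falls, where false calls were fewer but their share was still above 0.05 in ipsilateral against contralateral. Alternatives were DESeq2 1.42.0, other scalings, filters and peak sets, and leaving out libraries. Exonic tags per library were 2839 to 28742, and limits and intervals cover counting error only, since duplicate removal is not stated. The design text ties a replicate number to 1 day of surgery, so the numbers pair the libraries. The main fit held the group only and did not use this pairing. An alternative fit took the replicate number as a block, and it changed no call of a member. Deviations of same-numbered libraries correlated by 0.12 to 0.541, apart from -0.00860 for replicate 3.

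Named are the 8 members, the 3 pathway genes with most exonic tags, the 3 genes most like Tnrc6b, genes that passed the test, and Sema6d, chosen after its values were seen. The members and lists were chosen with earlier results of these data known. No sequence was at hand for 1 of 35 miRNA families, miR-124-3p.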

Additional observations from a re-analysis of the deposited data

Results flagged for a closer look

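Of 33 groups of 4 or 5 libraries looked at, 5 held 1 library far from the others of its group. For values that vary smoothly, chance alone marks about 1 in 20. That rate does not hold where 1 library has tags and the others have 0, since the rule then always flags it. The flags of Ago1 and Ago2 are of this kind, in contralateral 1, the contralateral library with most peak tags. Tnrc6a stood at 20.6 per 10000 exonic tags in ipsilateral 1, with the other ipsilateral libraries at 10.1 to 12.2. Dicer1 stood at 14.1 in ipsilateral 5, from 4 tags, with the others at 2.04 to 5.36. The 3 Tnrc6 genes together stood at 42.6 in contralateral 4, with the others at 31.7 to 33.4. Ago1 was at 1.04 per 10000 in contralateral 1 and at 0 in the other contralateral libraries. The intronic Ago2 peak was at 1.98 per 10000 peak tags in contralateral 1 and at 0 in the other contralateral libraries.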

How the results depend on the processing

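Depth limited the tests: 3 of 6 members with peaks passed the filter, and no member was called under any alternative run. The fold change of Tnrc6b kept its sign in 24 of 24 alternatives in ipsilateral against sham (-0.76 to -0.46, lowest edgeR adjusted p = 0.291) and in 24 of 24 against contralateral cortex (-0.80 to -0.42, lowest adjusted p = 0.246). All other sign changes were of values that were not called, and their cause was not tested. For Tnrc6a in ipsilateral against sham the log2 fold change turned to -0.048 without the filter, to -0.00044 with all peaks of a gene, to -0.19 without the 3 libraries of replicate 1 and to -0.13 with overlapping peaks counted once, and it ran from -0.36 to 0.23 with single libraries left out. For Tnrc6b in contralateral against sham it turned to 0.035 with the replicate block, 0.027 with exonic tags as library size, 0.24 with all peak tags as library size, 0.095 with all peaks of a gene and 0.0026 with overlapping peaks counted once, and from -0.20 to 0.17 with single libraries left out. With all peak tags as library size the median of all genes in that comparison moved to 0.21. For Tnrc6c without the filter, 3'UTR peaks alone gave 0.022 in ipsilateral against contralateral and -0.15 in contralateral against sham, and the latter was -0.33 without replicate 1 and -0.24 to 0.45 with single libraries left out. For Dicer1 in ipsilateral against contralateral, single libraries left out gave -0.50 to 0.11, positive only without contralateral 2. The number of genes called in ipsilateral against sham was 1, and it was 0 with all peaks of a gene or overlapping peaks counted once, 2 with DESeq2, with no filter, with wholly exonic labels or without replicate 1, and 0 to 10 with single libraries left out, 10 being without ipsilateral 1. In ipsilateral against contralateral it was 0, and it was 1 with all peak tags as library size, 4 with DESeq2, 2 with no filter, 1 with the replicate block, 5 without replicate 1 and 0 to 10 with single libraries left out, again 10 without ipsilateral 1. For single peaks it was 0, and 0 to 1 with single libraries left out. The replicate block changed no call of a member. Counting overlapping peaks once and wholly exonic labels were added after seeing the data, as was the height of 12, also for tag densities.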
